A study of Homo sapiens with 47 samples.

Results

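The cytosolic and mitochondrial heat shock genes are 10 genes of the 57507 in the deposited table: HSPA1A, HSPA1B, HSPA8, HSPH1, DNAJB1, HSP90AA1, HSP90AB1, HSPB1, HSPD1 and HSPE1. They were chosen by gene symbol, with earlier results of these data known, and each symbol had 1 row. No measured value was part of the rule. Their transcripts were followed in bulk RNA-seq of 2 human cancer lines, with 32 libraries of HAP1, which derives from a chronic myeloid leukemia and carries almost 1 set of chromosomes, and 15 of HCT116, from a colorectal carcinoma. HAP1 had 4 libraries for each of 8 lines: unedited wild type (WT), an empty-vector line (EV) that received Cas9 without a gRNA, and clones C1 to C6, in which Cas9 and gRNAs had edited NUP58, a gene of the nuclear pore complex. Each of the 6 clones grew from a single cell and is 1 clonal line, collected early after isolation. In HCT116, 4 libraries came from 1 NUP58-edited clone and 11 from unedited cells (WT, EV1 and EV2, 2 of them with conflicting labels). No library was heated or treated. The question was whether chaperone genes differed in cells that carry partial loss-of-function alleles of an essential gene.

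Heat shock proteins are chaperones: they bind unfolded or newly made proteins, help them to fold and keep them from aggregating. HSP70 proteins (HSPA8, which is made at all times, and the inducible HSPA1A and HSPA1B) work with J-domain partners such as DNAJB1, which start their ATPase cycle, and with HSPH1, an HSP110 protein that exchanges their nucleotide. HSP90AA1 and HSP90AB1 encode the inducible and the constitutive cytosolic HSP90, HSPB1 encodes the small heat shock protein HSP27, and HSPD1 and HSPE1 encode the mitochondrial chaperonin HSP60 and its co-chaperonin HSP10. Many of these genes are switched on by heat shock factor 1 (HSF1), which binds heat shock elements, inverted repeats of the letters GAA, in their promoters.

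Because the 10 genes are known as targets of a shared factor, their promoters were searched for heat shock elements. The windows were 300 bases of GRCh38.p14 around each annotated start (250 before it and 50 after it, from RefSeq), and 9 of the 10 genes had 15 such windows. HSPE1 had no entry in the table of windows used here, so its promoter was not analysed here. The letters GAA, any 2 bases, TTC, any 2 bases and GAA (13 bases, searched on both strands) stood in 4 of the 15 windows (26.7%) and in 0.489% of 34943 windows of all genes. These were windows of HSPA8, HSP90AA1, HSP90AB1 and HSPD1. A shorter match of 8 bases, GAA and TTC or TTC and GAA with any 2 bases between them, is part of the longer one and stood in 9 of the 15 windows and in 13.5% of all. HSPH1 had neither in its window. A match is a description of letters and not a measured binding site.

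Stretches that hold these letters in the promoters of the members discussed most are printed here. Capitals mark the 13-base match where a stretch has one (2 overlapping ones in HSPD1) and the 8-base match otherwise. Further 8-base matches beside a 13-base match stay in lower case, and a second DNAJB1 stretch is not shown. Each runs 5′ to 3′ on the strand of its gene.
HSPA8 (chr11:123062346-123062374, minus strand): gcgagcttGAAAGTTCCAGAAcgctgcgg
HSPA8 (chr11:123062171-123062199, minus strand): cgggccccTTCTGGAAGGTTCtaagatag
HSP90AA1 (chr14:102087096-102087156, minus strand): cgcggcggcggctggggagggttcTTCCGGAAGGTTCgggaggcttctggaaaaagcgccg
HSP90AB1 (chr6:44247754-44247814, plus strand): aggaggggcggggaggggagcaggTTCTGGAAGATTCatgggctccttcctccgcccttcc
HSP90AB1 (chr6:44247823-44247851, plus strand): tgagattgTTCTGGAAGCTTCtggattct
HSPD1 (chr2:197500062-197500090, minus strand): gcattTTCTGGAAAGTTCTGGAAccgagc
HSPA1A (chr6:31815413-31815468, plus strand): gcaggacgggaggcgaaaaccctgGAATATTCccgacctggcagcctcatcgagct
HSPA1B (chr6:31827609-31827664, plus strand): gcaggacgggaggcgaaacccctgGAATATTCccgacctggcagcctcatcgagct
DNAJB1 (chr19:14518413-14518498, minus strand): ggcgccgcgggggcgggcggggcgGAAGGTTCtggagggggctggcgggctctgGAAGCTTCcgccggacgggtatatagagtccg
The HSPD1 stretch lies 50 bases from the annotated start of HSPE1, which is read in the opposite direction. The HSPA1A and HSPA1B stretches lie outside any annotated gene. Those of HSPA8 and HSPD1 and the shorter one of HSP90AB1 touch an annotated exon of their gene, and the rest lie within the annotated span of their gene but touch no exon.

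HSPA1A and HSPA1B are near copies, and reads can be divided between them in more than 1 way. Both lie on the short arm of chromosome 6, HSPA1A at chr6:31815543-31817946 and HSPA1B at chr6:31827738-31830254. Their 300-base promoter windows were 92.6% identical where aligned. Their coding sequences, 1923 bases each, differed at 4 bases (99.8% identity), and the longest identical run was 1709 bases. The split between the 2 genes is therefore uncertain in every library, and their sum is given beside the main results for the pair. Rows of processed pseudogenes took at most 0.278% of the FPKM of HSPD1 with its pseudogenes and at most 2.56% for HSPE1.

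Values are FPKM as the authors deposited them, that is, fragment numbers divided by the length of the transcript and the size of the library, so levels can be compared between genes per length. The number of fragments behind a value is unknown. The relative depth of the libraries, read from the value of 1 fragment in low genes, spanned 0.75 to 1.156 for HAP1 and 0.761 to 0.934 for HCT116. NUP58 was at 34.3 to 50.4 FPKM in WT and EV and at 7.98 to 28.0 in the 24 clone libraries. In HCT116, 5 of 8 markers of intestinal epithelium had a median over 1 FPKM (EPCAM, CDH1, KRT8, KRT18 and KRT19), against 2 in HAP1. Of 8 blood-lineage markers, 1 did so in HAP1, the receptor gene KIT, and PTPRC was at 0. Fewer cells of a type and less RNA per cell cannot be told apart in bulk samples.

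In WT HAP1 cells, the most abundant of the 10 genes by FPKM was HSPA8 with 1114 ± 691 (SD, n = 4), followed by HSP90AB1 with 1071 ± 173, HSPD1 with 949.6 ± 213 and HSP90AA1 with 925 ± 248. The ranges of these 4 genes overlapped, but all were measured in the same libraries. HSP90AB1 was above HSPD1 and HSP90AA1 in every WT library. HSPA8 was above HSP90AB1 only in replicates 3 and 4, so the order of HSPA8 and HSP90AB1 is not larger than the spread. HSPE1 followed with 638 ± 179, a range that overlapped those of HSPA8, HSPD1 and HSP90AA1 but not that of HSP90AB1. HSPB1 had 344 ± 6.85, below every HSPE1 value. HSPH1 had 107 ± 55.9 and DNAJB1 had 44.005 ± 14.1, with ranges that overlapped. The stress-inducible pair was lowest, HSPA1A with 28.5 ± 12.2 and HSPA1B with 16.5 ± 5.84. Over the 8 unedited HAP1 libraries, mean levels placed HSPA8 88th and HSPA1B 5884th among all genes. Together the 10 genes took 0.41% to 1.1% of the summed FPKM of a HAP1 library.

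**Figure D1:**
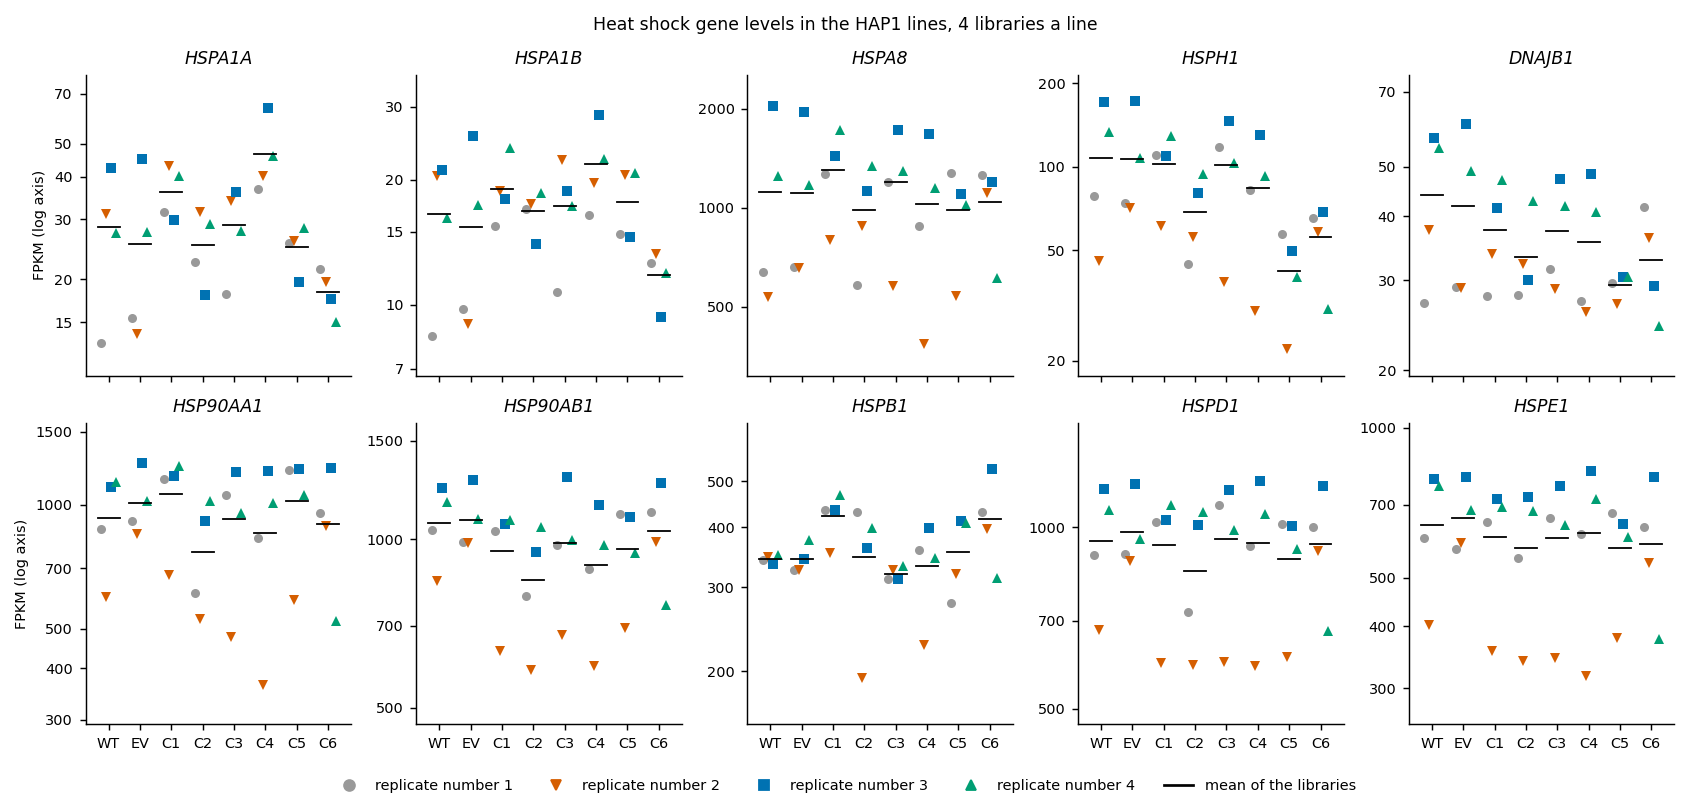
FPKM (log axis) of the 10 heat shock genes in the 8 HAP1 lines, 1 point a library, with marker shape and colour for the replicate number and a bar for the mean of 4 libraries. The spread within a line is wide for most genes: HSPA8 runs from 535 to 2036 in WT alone.

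No heat shock gene passed the test between the clones and WT. The test was limma on log2(FPKM + 1) with Benjamini-Hochberg adjustment over 13180 genes. In it the mean of the 6 clones differed from WT in 0 of the 10 members, while 6.6% of all genes tested were called. An unadjusted limma p under 0.05 was also reached by 0 members, and by 2643 of the 13180 genes. The median difference over the members was -0.05 on the log2 scale, against -0.02 over all genes tested. Of the 10 differences, 4 were above 0 and 6 below. The EV control gave 0 calls among the 10, with 0.038% of all genes called, and its differences from WT ran from -0.20 to 0.15.

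Among the HSP70 genes, HSPA8 had 636, 535, 2036 and 1247 FPKM in WT replicates 1 to 4, and its 24 clone libraries ran from 385 to 1728. The clone values lay within the range of WT except for the lowest, and the difference of the mean of the clones was 0.08 ± 0.34 (SE, log2 scale). HSPA1A was at 13.03, 31.0, 42.5 and 27.3 in WT, and its 24 clone libraries ran from 14.96 to 63.8. Its difference was 0.10 ± 0.23, and that of HSPA1B was also 0.10 ± 0.20. HSPH1, the HSP110 gene, had the widest difference of the 10, -0.49 ± 0.34 with an adjusted p of 0.450 by limma. DNAJB1, the J-domain partner, differed by -0.32 ± 0.19 (adjusted p = 0.362).

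The HSP90 pair and the mitochondrial pair did not pass the test either. HSP90AB1 differed by -0.20 ± 0.17 and HSP90AA1 by -0.04 ± 0.26. HSPD1 (chaperonin) was at 899, 675, 1158 and 1067 FPKM in WT, and its clone libraries ran from 589 to 1191. Its difference was -0.06 ± 0.19, and that of HSPE1 was -0.12 ± 0.23. The 95% interval of the difference ran from -0.45 to 0.33 for HSPD1, from -0.55 to 0.15 for HSP90AB1 and from -0.62 to 0.77 for HSPA8 on the log2 scale.

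The 6 clones taken singly also gave 0 calls among the 10 members. The share of all genes called was 0.479% for C1, 0.732% for C2, 0.0911% for C3 and 0.16% for C4, and it was higher for C5 (7.55%) and C6 (11.7%). The comparisons share their 4 WT libraries and are not separate tests. Unadjusted p under 0.05 in limma was reached by HSPB1 in C1, HSPA1A in C4, and HSPH1 and DNAJB1 in C5. Among all genes it was reached by 1542 of 13160 in C1, 870 of 13125 in C4 and 3076 of 13164 in C5. The exact two-sided permutation test with 4 libraries against 4 cannot go below 0.0286, and 70 such tests were made, 1 for each member in each clone and EV.

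**Figure D2:**
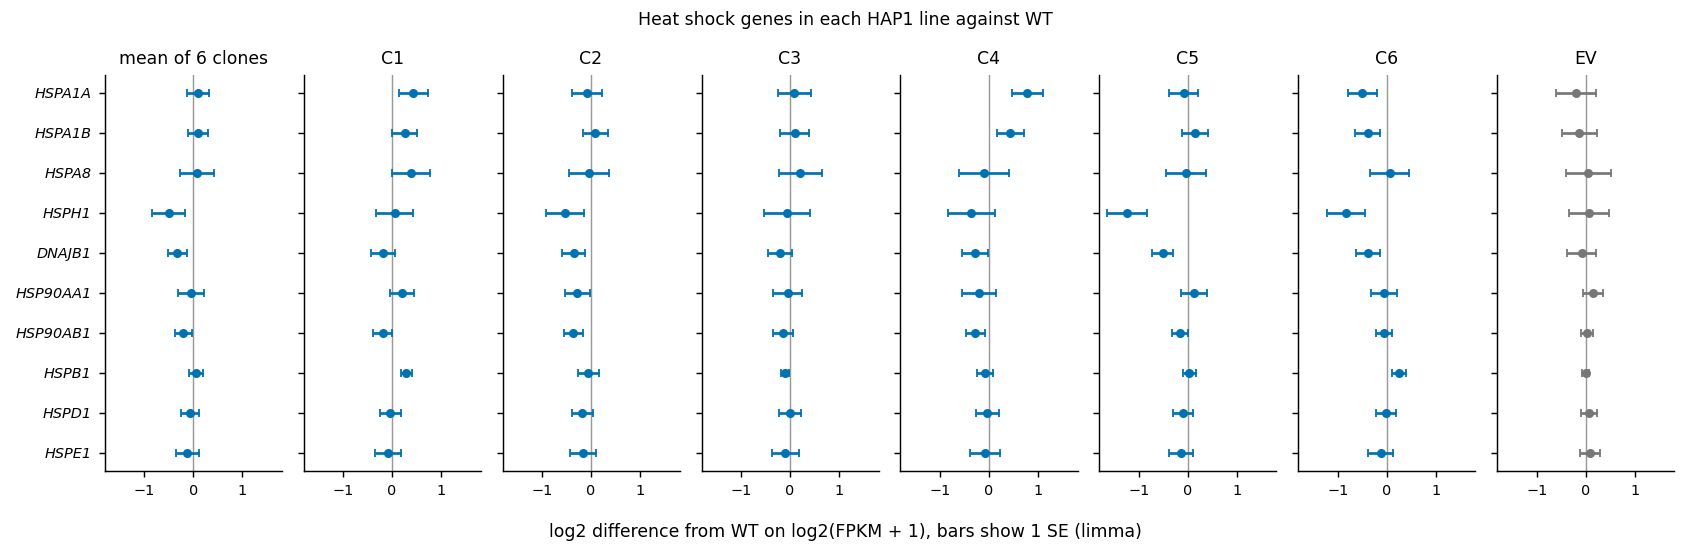
Difference from WT of each heat shock gene, on log2(FPKM + 1), for the mean of the 6 clones, each clone and EV, with bars of 1 SE from limma. HSPH1 lies at -1.24 in C5 and -0.83 in C6 and HSPA1A at 0.77 in C4.

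HSPB1 varied little in WT. Its 4 WT libraries had 341, 348, 335 and 351 FPKM, and the 4 of C1 had 435, 354, 435 and 467, all above WT (difference 0.29, exact permutation p = 0.0286, limma adjusted p = 0.299). The 4 libraries of C3, with 312, 325, 312 and 333, all lay below WT (difference -0.10, exact permutation p = 0.0286), but limma gave an adjusted p of 0.9995 (unadjusted 0.238). Both permutation p-values are the smallest this design can give. In every other pairing of a member with a clone the groups overlapped. The share of all genes whose groups separate in this way was not computed. The separations of HSPB1, in opposite directions in C1 and C3, are therefore not set apart from chance.

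HSPH1 was lowest in C5. It had 78.6, 45.9, 172 and 133 FPKM in WT replicates 1 to 4, 57.1, 22.004, 49.7 and 40.1 in C5, and 65.1, 58.0, 68.8 and 30.7 in C6. All C5 and C6 values lay below the 3 highest WT values, and both groups overlapped with WT replicate 2. The difference was -1.24 ± 0.41 in C5 (limma adjusted p = 0.0982, exact permutation p = 0.0857) and -0.83 ± 0.39 in C6 (limma adjusted p = 0.208, exact permutation p = 0.2), so neither passed the test. Against EV in place of WT the C5 difference was -1.30 with an adjusted p of 0.0257 (limma), and against WT without its replicate 2 it was -1.58 (limma adjusted p = 0.0214). Without WT replicate 2 the C6 difference passed the test too (-1.18, limma adjusted p = 0.0330). WT replicate 2 had the lowest HSPH1 value in WT, so leaving it out had to widen both differences. Replicate 2 was also the lowest library of C5 and was kept there. Of the other clones, C2 differed by -0.53, C4 by -0.36, C3 by -0.07 and C1 by 0.05. DNAJB1, at -0.51 in C5 (limma adjusted p = 0.181), passed the test there without WT replicate 1 (-0.72, limma adjusted p = 0.0384). That library had the lowest DNAJB1 value in WT, so its removal also had to widen the difference. Shares of all genes called in these other fits are not given here. Of the 33 other tested genes within 1 Mb of DNAJB1 on chromosome 19, 31 were below WT in C5 (median -0.26). In the mean of the clones, 28 of 32 were (median -0.14). The part of this shift in the DNAJB1 result was not tested.

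HSPH1 lies at chr13:31134973-31162388, 5.77 Mb from NUP58 on the same chromosome. The 5 other tested genes within 1 Mb of it were all below WT in C5 (median -0.61) and in C6 (median -0.64). Over 231 tested genes of chromosome 13 the median difference was -0.57 in C5, with 78.8% of them below WT, and over 237 genes it was -0.51 in C6, with 87.3% below. In C1, C3, C4 and EV the chromosome 13 median lay between -0.02 and 0.00, and in C2 it was -0.10. The part of this shift in the HSPH1 result was not tested.

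HSPA1A had clone means from 18.4 FPKM in C6 to 46.7 in C4. It had 36.8, 40.2, 63.8 and 45.9 FPKM in C4, 31.6, 42.9, 29.8 and 40.2 in C1, and 21.5, 19.6, 17.5 and 14.96 in C6. C4 was highest and C6 lowest, and these 2 clones did not overlap. They were picked as the extremes by these same values. C4 also lay above every library of C2, C3 and C5, but overlapped C1. For all genes, the share that separates in this way was not computed. The means were 46.7 ± 12.0 in C4, 36.1 ± 6.39 in C1, 29.0 ± 8.06 in C3, 28.5 ± 12.2 in WT and 25.5 ± 14.4 in EV (SD, n = 4 for every line). Below these came C2 with 25.3 ± 6.16, C5 with 24.8 ± 3.68 and C6 with 18.4 ± 2.80. Each pair of neighbours in this order overlapped.

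The moderated F test over the 6 clones was made without the replicate number in the fit. It called 1 of the 10 members, HSPA1A (limma adjusted p = 0.0314), while it called 15.8% of all genes. Over all 8 lines it again called HSPA1A (limma adjusted p = 0.0446), with 21.5% of all genes called. The spread between the highest and the lowest line mean was 1.28 on the log2 scale for HSPA1A, 1.30 for HSPH1 and 0.82 for HSPA1B. With HSPA1A and HSPA1B summed into 1 gene, 0 members were called in either test. The sum differed from WT by 0.67 in C4 and by -0.47 in C6. Without C4, C5 or C6, 0 members were called as well. The call over the 8 lines was lost in 19 of the 32 fits that left out 1 library, namely those without any library of C4, C5 and C6, C1 replicates 1, 2 and 4, C2 replicate 1, C3 replicate 4, EV replicate 1 and WT replicate 4. The call over the clones was lost in 5 of them, without C4 replicate 3 or 4 or C6 replicate 2, 3 or 4. With the replicate number in the fit, HSPH1 was called beside HSPA1A over the clones and over the 8 lines. Same-numbered libraries of C5 and C6 did not all deviate together with WT. What share of all genes those fits called is not given here.

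Against WT, HSPA1A in C4 differed by 0.77 ± 0.31 (limma adjusted p = 0.700, exact permutation p = 0.0857), and HSPA1B by 0.43 ± 0.28. Same-numbered libraries of C4 and WT deviated together, and in the blocked fit, paired by replicate number, the HSPA1A difference passed the test (limma adjusted p = 0.0482). How many of all genes the blocked fit called is not given here, so this call does not set HSPA1A apart from other genes. The sum of both copies had 68.5 ± 17.1 FPKM in C4 and 44.99 ± 17.7 in WT, a difference of 0.67 (exact permutation p = 0.114).

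In C6 the HSPA1A difference from WT was -0.50 ± 0.29 and that of HSPA1B -0.39 ± 0.25 (limma adjusted p = 0.311 and 0.367). Without WT replicate 1, the lowest of the WT libraries, both passed the test (-0.82 and -0.67, limma adjusted p = 0.0282 and 0.0389). Leaving out the lowest WT library had to widen both differences. How many of all genes that fit called is not given here. Of 52 other tested genes within 1 Mb of HSPA1A, 49 were below WT in C6, with a median of -0.76. HSP90AB1, farther along chromosome 6 at chr6:44246166-44253888, differed by -0.06 in C6, where the 22 tested genes within 1 Mb had a median of 0.15. In C4 the neighbours of HSPA1A had a median of -0.16, and HSPA1A itself lay above all 52 of them. The part of the shift along chromosome 6 in the HSPA1A result was not tested.

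**Figure D3:**
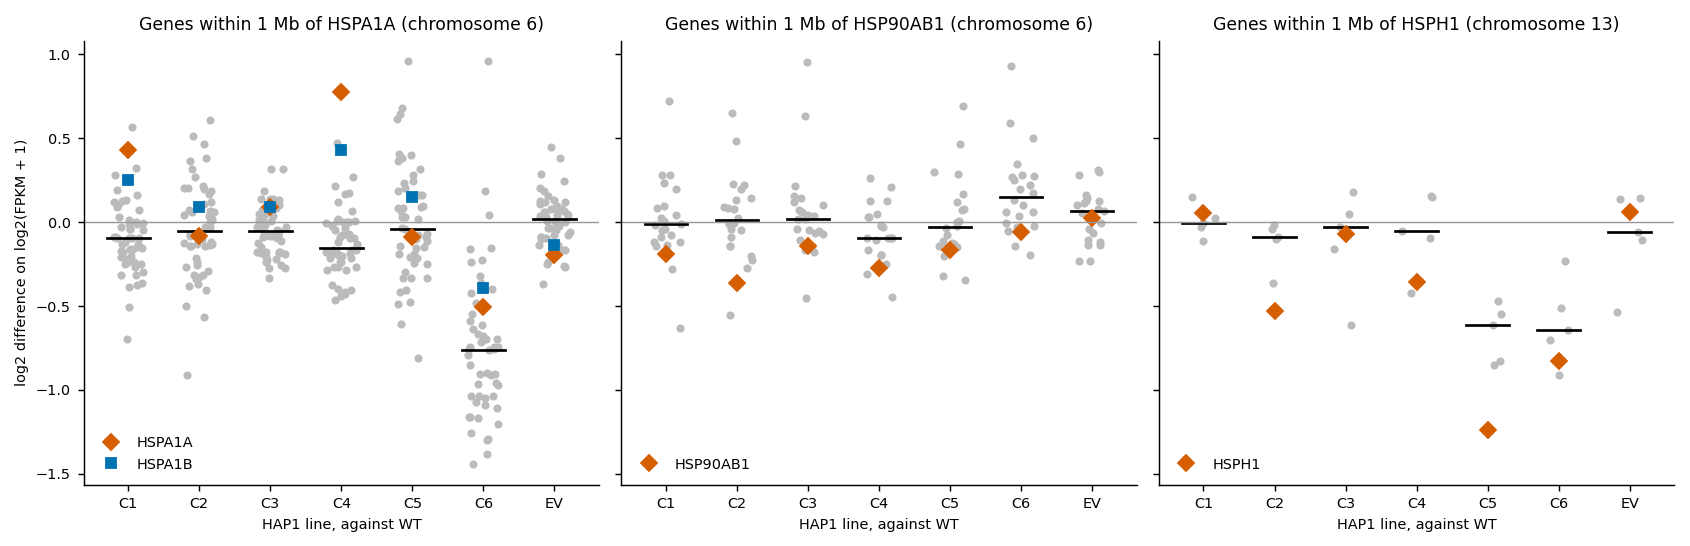
Difference from WT on log2(FPKM + 1) of heat shock genes (coloured) and of the other tested genes within 1 Mb (grey, bar at the median) in each HAP1 line, for HSPA1A with HSPA1B, HSP90AB1 and HSPH1. The grey median falls to -0.76 around HSPA1A in C6 and to -0.61 and -0.64 around HSPH1 in C5 and C6, but is 0.15 around HSP90AB1 in C6.

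For each of the 10 members, differences between libraries of a line took more of the variance than differences between lines. Within the lines, the SD of HSPA8 was 0.68 and that of HSPH1 0.67 on the log2 scale, where the median gene had 0.25. The line accounted for 6.04% of the variance of HSPA8 over the 32 libraries, the replicate number for 52.6% and the rest for 41.4%. For HSPD1 the line took 4.27% and the number 66.2%, and for HSPE1 3.497% and 69.6%. HSPA1A was the member in which the line took the most, 46.8% against 11.4% for the number. The medians over all genes tested were 31.1% for the line and 21.9% for the number.

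The replicate number, tested with the line in the same model, was called for 8 of the 10 members, with 52.8% of all genes called. HSPE1 had the smallest adjusted p (6.85e-05 by limma), followed by HSP90AB1 (0.000111) and HSPD1 (0.000112). The 2 members not called were HSPA1A (limma adjusted p = 0.151) and HSPB1 (0.0580). The labels do not say what a replicate number shares across lines.

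Libraries numbered 2 were mostly the low ones. HSPD1 was lowest in replicate 2 in 7 of 8 lines, all but C6, and HSP90AA1 and HSP90AB1 were too. HSPA8 was lowest there in 6 of 8 lines. In C1, HSPD1 had 1019, 597, 1029 and 1091 FPKM in replicates 1 to 4, and in C4 it had 929, 589, 1191 and 1054. In C6 the low library was replicate 4: HSPD1 had 913 in replicate 2 and 674 in replicate 4. EV replicate 2, with 880, was only just below EV replicate 1, with 901.

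**Figure D4:**
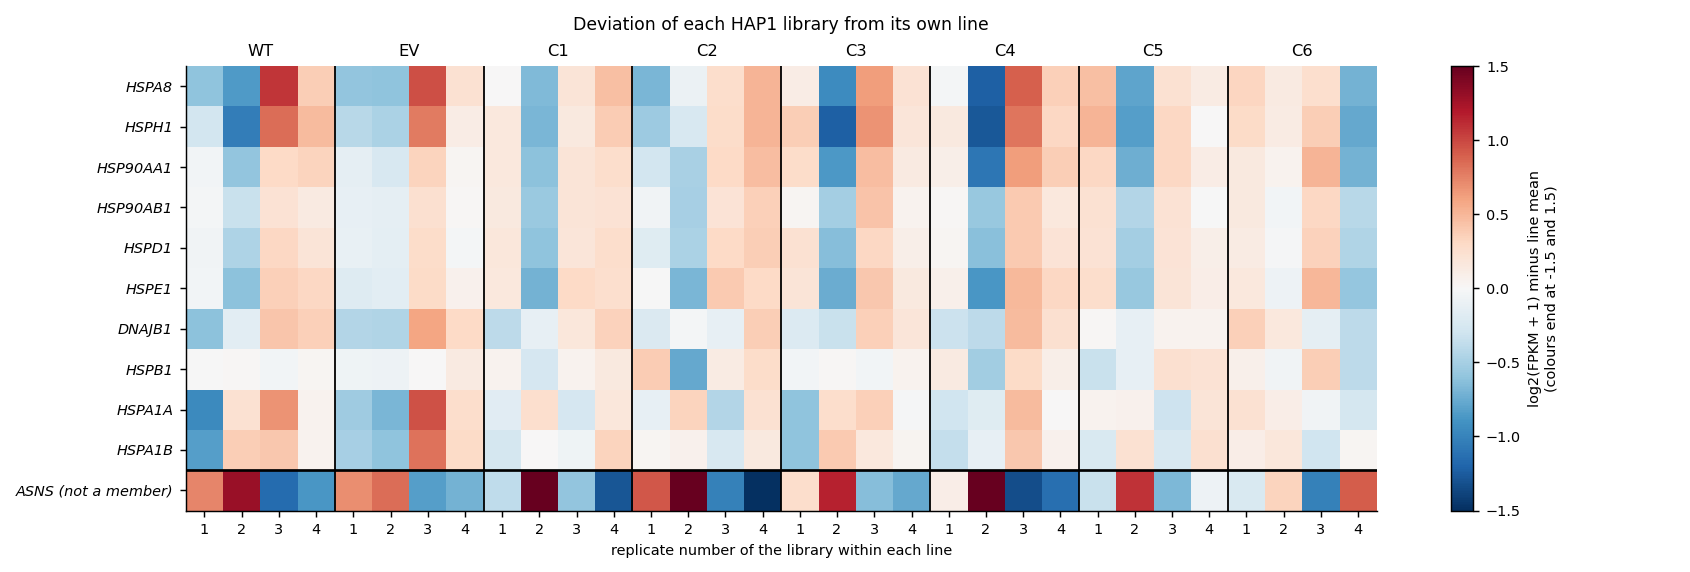
Deviation of each HAP1 library from the mean of its own line, on log2(FPKM + 1), for the 10 heat shock genes and for ASNS, with the 4 replicate numbers of each line side by side. Replicate 2 of WT and C1 to C5 and replicate 4 of C6 are the lowest of their line for HSP90AA1, HSP90AB1, HSPD1 and HSPE1 and the highest for ASNS.

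The members moved together from library to library, but in 2 sets that were told apart after their values were seen. Over the 32 HAP1 libraries, deviations from the line means of HSPA8, HSPH1, HSP90AA1, HSP90AB1, HSPD1 and HSPE1 correlated with Pearson's r of 0.85 to 0.983 in their 15 pairs. HSPD1 and HSPE1 had r = 0.983, and HSP90AA1 and HSPD1, which lie on different chromosomes, had 0.981. HSPA1A and HSPA1B correlated with each other (r = 0.92), but with the mean of the 10 members at only 0.491 and 0.385. DNAJB1 stood between, with r = 0.841 to that mean, and HSPB1 had 0.535. The points share library and depth, so these r describe the libraries. With the means of the replicate numbers removed as well, the median r over all 45 pairs was 0.529, against 0.592 before.

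The low libraries were those with high ASNS, the gene of asparagine synthetase, which cells raise when amino acids run short. ASNS had 170, 251, 45.1 and 55.3 FPKM in WT replicates 1 to 4 and 72.2, 451, 62.0 and 38.1 in C1. Its deviations correlated with those of HSPD1 at r = -0.923 (Spearman's rho -0.907) over 32 libraries, and at -0.897 without the 2 libraries farthest in ASNS. For HSPA8 r was -0.868, for HSPB1 -0.634, for HSPA1A -0.236 and for HSPA1B -0.21. ASNS was chosen after its values were seen, and its part in the heat shock gene levels was not tested.

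With ASNS as a covariate, the differences of HSPH1 were -1.23 in C5 and -0.73 in C6, and both passed the test (limma adjusted p = 0.000113 and 0.00490). In the mean of the 6 clones, HSPH1 (-0.53, limma adjusted p = 0.0326) and HSP90AB1 (-0.22, limma adjusted p = 0.0369) passed it too. This fit was chosen after the data were seen, and a covariate measured in the same libraries can itself differ between lines. The share of all genes called with ASNS as a covariate in HAP1 is not given here. These calls therefore do not set the members apart from other genes.

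The 5 genes outside the family that followed the mean of its deviations most closely were PSMD1 (r = 0.951), a subunit of the proteasome, SRM (0.951), the spermidine synthase gene, YKT6 (0.947), a SNARE of vesicle transport, TONSL (0.945), which acts in DNA replication repair, and TRMT1 (0.945), a tRNA methyltransferase. The measure was taken over 32 libraries and carries no p.

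Of 61 other chaperone and heat shock genes in 9 groups, 53 were tested in HAP1, and 3 were called in the mean of the 6 clones, where 6.6% of all genes were called. HSPA13, an HSP70 relative of the endoplasmic reticulum, differed by 0.32 ± 0.08 (limma adjusted p = 0.00846). DNAJB6, a J-domain protein that hinders aggregation, differed by 0.35 ± 0.08 (limma adjusted p = 0.00982). FKBP5, an HSP90 co-chaperone of steroid receptors, differed by -0.30 ± 0.09 (limma adjusted p = 0.0391). Its difference was -0.91 in C6 and ran from -0.21 to -0.12 in the other clones. HSPA13 and DNAJB6 were above WT in each of the 6 clones, by 0.18 to 0.45 and by 0.24 to 0.53, without a call in any single clone. These differences share their WT libraries and make up the mean by which both genes were picked. They are therefore not separate support. The median over the 53 genes was 0.00. Without WT replicate 1, 1 of the 53 was called, and without WT replicate 2, 0 were.

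By group, 1 of 4 tested HSP70 and HSP110 genes, 1 of 7 J-domain partners and 1 of 10 HSP90 co-chaperones were called. None of the 4 heat shock factors and their binding protein, 6 HSP70 partners or 10 mitochondrial chaperones and proteases was called in this fit. The same held for 8 subunits of the chaperonin TRiC, 3 other heat-induced genes and 1 small heat shock protein. An unadjusted limma p under 0.05 was reached by 6 of all 53 list genes and by 2643 of all 13180 genes tested. In single clones, FKBP5 fell by 0.91 in C6 (limma adjusted p = 0.000698), and the 21 other tested genes within 1 Mb of it on chromosome 6 had a median of -0.81. SUGT1, a co-chaperone gene on chromosome 13, fell by 0.89 in C5 and by 0.90 in C6 (limma adjusted p = 0.0172 and 0.0371), and its 13 tested neighbours had medians of -0.54 and -0.49. BAG3, an HSP70 co-chaperone, fell by 0.40 in C5 (limma adjusted p = 0.0496). With the replicate number, 37 of the 53 genes changed, all 8 TRiC subunits and 9 of 10 HSP90 co-chaperones among them, in 52.8% of all genes.

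In HCT116, 2 libraries went against their labels in the edited gene itself. The clone library numbered 3 had 44.7 FPKM of NUP58, where the other 3 clone libraries had 23.3 to 25.3, and the EV2 library numbered 3 had 23.9, where the other EV2 libraries had 29.7 to 50.3. The results are therefore given with all libraries and without those numbered 3.

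No heat shock gene passed the test between the HCT116 clone and the 11 unedited libraries. Of the 10 members, 9 passed the filter on low values (mean FPKM of at least 1) and 0 were called, as were 0 of all 12960 genes, or 0%, while 1342 genes had an unadjusted p under 0.05 in limma. Without the 3 libraries numbered 3, 0 of the 9 were called as well. Genes outside the members were called in that fit, LONP1 (limma adjusted p = 0.00567) among them. How large a share of all genes they made up is not given here. HSPB1 had 616, 654, 674 and 567 FPKM in the clone and 353 to 697 in the unedited libraries. The groups overlapped, and the difference was 0.38 ± 0.16 (limma adjusted p = 0.431, exact permutation p = 0.0396). Without the libraries numbered 3 it was 0.38 (limma adjusted p = 0.190, exact permutation p = 0.0545). ASNS was at 42.6 to 75.3 FPKM in the clone and at 66.8 to 349.5 in the unedited libraries, and with it as a covariate the HSPB1 difference was 0.05, or 0.13 without the libraries numbered 3. In that last fit, chosen after the data were seen, 3 members passed the test, with 20.8% of all genes called: HSP90AB1 (-0.84, limma adjusted p = 0.0140), HSPD1 (-0.69, limma adjusted p = 0.0350) and HSPE1 (-0.92, limma adjusted p = 0.0373). ASNS then had 56.3 to 75.3 FPKM in the clone and 66.8 to 316 in the unedited libraries, ranges that overlapped only between 66.8 and 75.3. HSPH1 had 80.1, 81.3, 169 and 81.6 in the clone, the third being the library that went against its label. Its difference was 0.14 with all libraries and -0.09 without those numbered 3. The difference of HSPD1 was -0.03 (95% interval -0.51 to 0.46), and -0.22 (-0.78 to 0.33) without those numbered 3. For HSPA8 it was 0.36 (-0.23 to 0.94), and 0.26 (-0.47 to 0.98) without them.

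**Figure D5:**
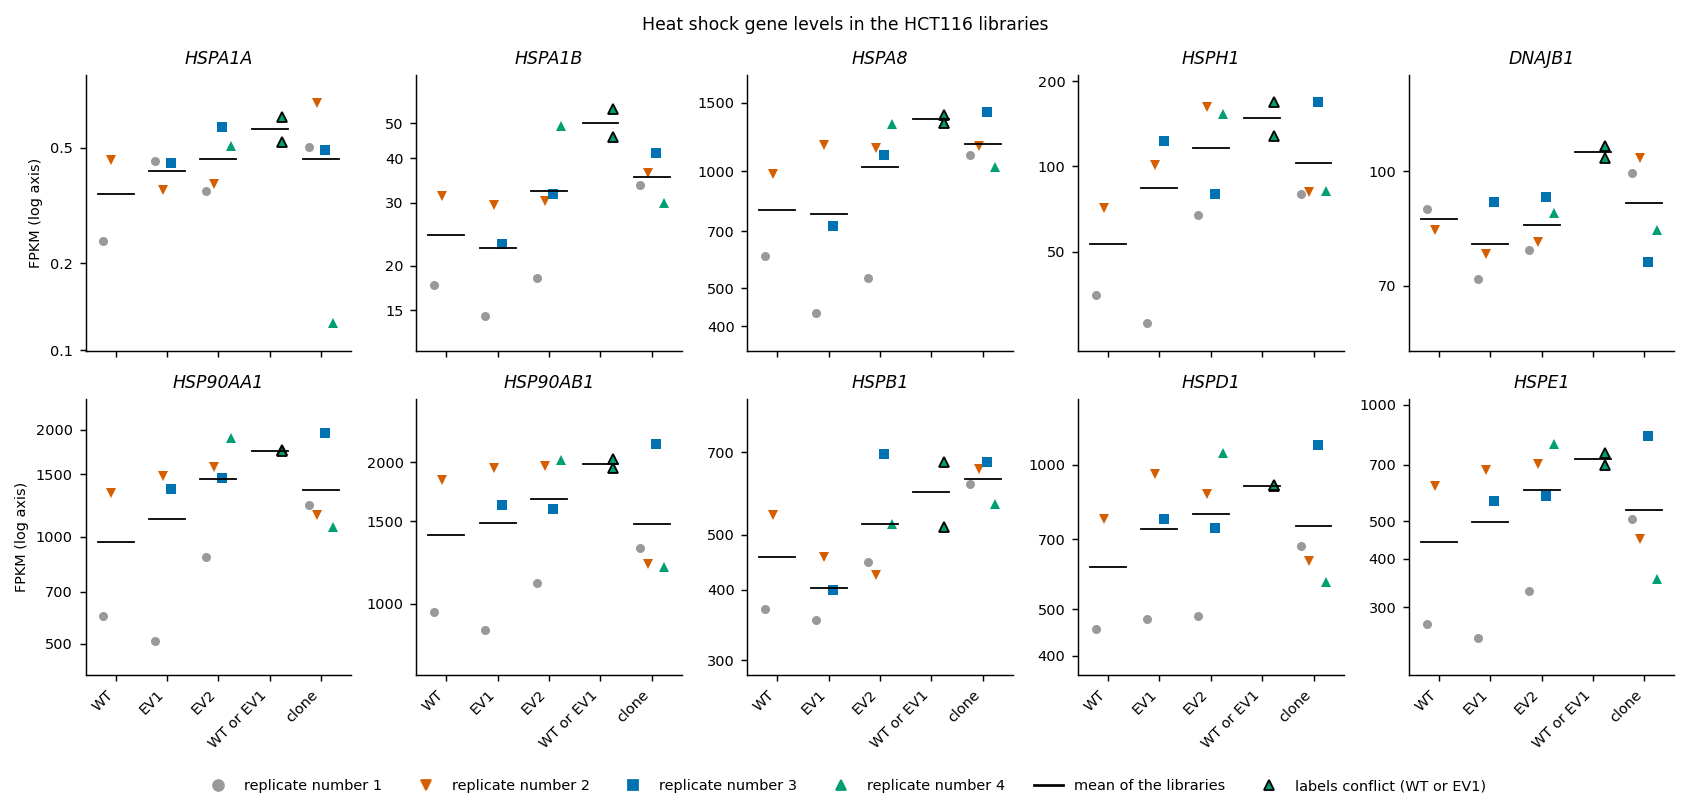
FPKM (log axis) of the 10 heat shock genes in the HCT116 libraries by group, 1 point a library, with marker shape and colour for the replicate number, a bar for the group mean and black outlines for the 2 unedited libraries with conflicting labels. HSPA1A stays between 0.124 and 0.717 in all 15 libraries while HSPA1B runs from 14.4 to 54.9.

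Of the other genes of the list, 56 were tested in HCT116 and 0 were called, with 5 at an unadjusted p under 0.05 in limma. The 3 with the smallest p were LONP1, a mitochondrial protease (-0.40), FKBP5 (-0.52) and DNAJC19, a mitochondrial J-domain protein (-0.25), each with an adjusted p of 0.351 to 0.358. Without the libraries numbered 3, 4 list genes were called: FKBP5 (-0.77, limma adjusted p = 0.00331), LONP1 (-0.57, limma adjusted p = 0.00567), DNAJB2, a J-domain gene (0.43, limma adjusted p = 0.0325), and TRAP1, the mitochondrial HSP90 (-0.39, limma adjusted p = 0.0471). DNAJC19 differed by -0.32 there (limma adjusted p = 0.0601). DNAJB2 and TRAP1 are named after their values were seen. The share of all genes called without the libraries numbered 3 is not given here, so these 4 calls do not set the list apart. The mean of the HAP1 clones gave -0.30 for FKBP5, -0.06 for LONP1 and 0.13 for DNAJC19. For FKBP5, C6 was at -0.91 and the other clones ran from -0.21 to -0.12.

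HSPA1A was close to 0 in HCT116. In the 8 unedited HAP1 libraries it ran from 13.03 to 45.03 FPKM, and in the 11 unedited HCT116 libraries from 0.239 to 0.637, with no overlap. The mean ratio was 60.1, and the difference was 4.14 ± 0.19 on log2(FPKM + 1) (limma adjusted p = 1.44e-14). HSPA1B went the other way, with 8.40 to 25.5 in HAP1 and 14.4 to 54.9 in HCT116 (difference -0.92, limma adjusted p = 0.00280). The sum of the copies had 42.9 ± 18.7 in HAP1 and 31.9 ± 13.5 in HCT116 (SD, n = 8 and 11), a difference of 0.40 with a permutation p of 0.18 (exact). The copies differed in opposite directions, and the difference of their sum did not pass the test.

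In this comparison of unedited lines, 6 of the 10 members were called, with 68% of all genes called. DNAJB1 was lower in HAP1 in every library, 27.1 to 60.6 against 71.4 to 108 FPKM (difference -1.07 ± 0.14, limma adjusted p = 9.93e-07). HSP90AB1 (-0.55) and HSPB1 (-0.48) were also lower in HAP1, and HSPD1 (0.37) was higher (limma adjusted p = 0.00467, 0.000619 and 0.0442). HSPA8 (0.11), HSPH1 (0.14), HSPE1 (0.26) and HSP90AA1 (-0.38) did not pass the test. With the WT libraries of both lines alone, 2 of the 10 were called, and the share of all genes called in that fit is not given here. The HSPD1 call was lost in 13 of the 19 fits that left out 1 library, with differences of 0.31 to 0.45. Without the HCT116 libraries numbered 3, 5 of the 10 were called, with 66.2% of all genes called: HSPD1 was the one lost (0.38, limma adjusted p = 0.0632), and HSPA1A differed by 4.16. Cell line and everything else that differed between these sets of libraries cannot be told apart. Of the other list genes 32 of 55 were called, 18 higher and 14 lower in HAP1. The widest differences, named after their values were seen, were those of the ubiquitin gene UBB (-8.33) and the J-domain gene DNAJA4 (-5.05).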

How the data were processed

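RNA of 32 HAP1 and 15 HCT116 libraries was sequenced. The authors trimmed the reads, aligned them to GRCh38 with STAR and quantified genes with RSEM, and deposited FPKM values per gene, which scale fragments by transcript length and mapped fragments. They state no further normalization between libraries. Versions of these tools are not given in the sources used here. FPKM is not a count, so no count model was used and the depth behind a value is unknown. A few abundant transcripts can shift all other values of a library.

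All 47 columns were used, each matched to its sample through the labels. Values were analysed as log2(FPKM + 1), which understates the change of low genes. The test was limma 3.58.1 under R 4.3.3, moderated with an intensity trend, on genes whose mean FPKM over the fitted libraries reached 1, and 95% intervals used its degrees of freedom. P-values were adjusted by Benjamini-Hochberg over all tested genes, and genes under 0.05 were called. Single lines were set against WT using 8 libraries, the averaged clones using 32, and HCT116 using 15. Single members were also compared by exact two-sided permutation tests (scipy 1.17.1), unadjusted. The study describes its HAP1 RNA-seq replicates as independent experiments. It calls the HCT116 ones biological replicates in one legend and technical replicates in another, and the labels say neither. P-values measure the spread between these libraries, which may be technical in HCT116. The tests were tried on simulated data.

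Same-numbered libraries deviated together (correlation across genes over 0.1) in all 4 pairs with WT for C1 to C4 and EV, and in 2 of 4 for C5 and C6, so the blocked value is given beside a result for the former where it changes a call.

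Gene positions came from GENCODE release 44, and promoter sequences from RefSeq on GRCh38.p14. Members and lists were chosen with earlier results of these data known. Named genes were all 10 members, list genes called in the mean of the clones, in HCT116 the 3 list genes with the smallest p where none was called, and the 5 genes most like the members. Alternatives were another pseudocount, filter, scaling, variance trend, reference, call rule, the replicate block, both HSPA1 copies summed, and leaving out clones or libraries. ASNS as a covariate, leaving out the clone and EV2 libraries numbered 3, ASNS without the HCT116 libraries numbered 3, and the cell lines compared without those, were added after the data were seen.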

Additional observations from a re-analysis of the deposited data

Results flagged for a closer look

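In groups of 4 libraries, 1 library stood far from the other 3 in 5 of 100 tests of a member in a group, and chance alone flags about 5. In C1, replicate 2 was low for HSP90AA1 (673.3 FPKM, the others 1152 to 1238), HSP90AB1 (630.2, the others 1033 to 1084) and HSPD1 (596.6, the others 1019 to 1091). In the HCT116 clone, the library numbered 3 was high for HSPH1 (169.2, the others 80.1 to 81.6) and HSP90AB1 (2185, the others 1200 to 1312), and this is the library whose NUP58 level went against its label. HSPA1A was called among the 6 clones (adjusted p of limma's F test 0.0314), with 15.8% of all genes called. It was higher in all 4 libraries of C4 than in those of C6, the highest and the lowest clone.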

How the results depend on the processing

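In the mean of the 6 clones, ASNS as a covariate gave 2 members instead of 0. The single clones, with 0 members called, gave 1 with WT and EV together for C1 and 1 in the blocked fit for C4. C5 gave 1 in the blocked fit, 1 with EV in place of WT, 1 with WT and EV together and 2 with ASNS, and C6 gave 1 with ASNS. The replicate block paired libraries by number. For C5 and C6 only 2 of 4 numbers deviated together with WT. In the tests among lines the block gave 2 members instead of 1, HSPA1A and HSPH1, over the 8 lines (limma adjusted p = 0.0169 and 0.00509) and over the 6 clones (0.0117 and 0.0108), and it changed no other count of calls by more than 1.5 times. Over the 8 lines, 0 members were called with no filter on low FPKM, without a variance trend, with the HSPA1 copies summed, and without C1, C4, C5 or C6, and 3 with ASNS. Over the 6 clones, 0 were called with no filter, with the copies summed and without C4, C5 or C6, and 2 with ASNS. Between the cell lines, 2 of 10 were called with WT libraries alone. Of the other list genes, 0 were called in the mean of the clones with a fold of at least 2 and p under 0.01, 8 with WT and EV together and 6 with ASNS. In HCT116, 4 were called without all libraries numbered 3 and 6 without the clone and EV2 libraries numbered 3. With ASNS and without all libraries numbered 3, 3 members and 24 other list genes were called. The cause of these changes was not tested. Shares of all genes called in these fits are not given in this section. Its counts therefore do not set the members or the list genes apart from other genes.

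No difference that changed sign had passed the test. In the mean of the clones, HSP90AA1 was 0.0029 without C2 and HSPA1A was -0.0315 without C4. In HCT116 without the 2 libraries with conflicting labels, HSPD1 was 0.0378 and HSPE1 0.0465. Without all libraries numbered 3, HSPH1 was -0.0893 and HSP90AA1 -0.0533, and without those of the clone and EV2 they were -0.1402 and -0.0732. With the 2 WT libraries alone as controls, HSP90AB1 was 0.1068, HSPD1 0.2795 and HSPE1 0.3158. With ASNS, HSPA1B was -0.3288, HSPA8 -0.3068, HSPH1 -0.3994 and HSP90AA1 -0.4951, and with ASNS and without the libraries numbered 3 they were -0.4345, -0.399, -0.7926 and -0.7116.

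Leaving out 1 library at a time gave 0 to 1 members for C5, 0 to 2 for C6, 0 to 1 over the 8 lines and 0 to 1 over the 6 clones, and 0 to 4 other list genes in the mean of the clones and 0 to 2 in HCT116. In the mean of the clones, the differences ran from -0.2169 to 0.3275 for HSPA1A, -0.1712 to 0.2392 for HSPA1B, -0.2044 to 0.4374 for HSPA8, -0.2412 to 0.0676 for HSP90AA1, -0.214 to 0.0457 for HSPD1 and -0.3234 to 0.0014 for HSPE1. In HCT116 they ran from -0.0223 to 0.1311 for DNAJB1, -0.0983 to 0.1952 for HSP90AA1, -0.2326 to 0.0834 for HSPD1, -0.2884 to 0.1189 for HSPE1 and -0.1257 to 0.2307 for HSPH1. The depth behind each FPKM is unknown, so counting error could not be set apart from the spread between libraries.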
